A study of Mus musculus with 20 samples.

Results

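The open chromatin found 1 week after a second wound was compared with that found 1 week after a first wound, in sorted epidermal cells of mice. Overlapping peaks of each wound's list were merged into regions, and both lists were then laid over each other. This gave 52963 merged regions, of 101406 that the 10 peak lists of the series give when merged in the same way. A region was called gained when the first-wound list held no base of it, lost when the second-wound list held no base of it, and shared when both lists held it. Within the shared regions, the signal value that the authors gave each peak was ranked in each list, from percentile 0 (weakest) to 100 (strongest), so that the rank of a region could be compared between the wounds.

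The study used ATAC-seq, in which the transposase Tn5 cuts open DNA and adds sequencing adapters to it. All groups were mice of the genotype Lrig1CreER/Rosa-TdTomato, in which Cre under the control of Lrig1, once activated, turns on a red fluorescent protein in cells that express Lrig1 and in their descendants. The cells were sorted as Lrig1 GL, Sca1+ epidermal cells. The second-wound group has 2 libraries made 1 week after wounding for a second time, and the first-wound group has 2 libraries made 1 week after wounding for the first time. The labels used here give neither the sex, age and number of the mice, nor whether the 2 libraries of a group came from separate animals, nor the time between the wounds. A group's libraries were combined by the authors into a single peak list. Replicate error could therefore not be estimated, no difference was tested, and no p-value is given.

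In hairy skin, Lrig1-expressing cells sit in the upper part of the hair follicle, and wounding draws such cells into the epidermis above. Keratinocytes that have met inflammation once can keep some of the chromatin opened by it, which is known as inflammatory memory of the epidermis. IL-1 family cytokines are among the first signals that damaged keratinocytes release: IL-1 alpha and the IL-36 cytokines activate their receptors, while secreted antagonists and decoy receptors limit them.

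The largest difference in rank among strong shared regions lay at the promoter of Il1f8. Promoters of 5 other IL-1 family genes were lost, of 12 open after the first wound in a list drawn up after the values were seen. Over all genes, 738 of 9264 promoters open after the first wound were lost (7.97%). Of 8676 open after the second wound, 150 were gained (1.73%). Promoter sequences of some genes of the IL-1 family, the inflammasome and necroptosis, chosen after the values were seen, are given first. They are from RefSeq on GRCm38.p6, the assembly of mm10, 250 bases before to 50 bases after the gene start, in the direction of the gene. Capitals mark matches to any of 10 motifs on either strand. The AP-1 motif was searched as TGANTCA, with any base at N. For the TEAD factors GGAATG was used, and for the RUNX factors TGTGGT. For the GATA factors the search was AGATAA, and for the E-box CAGCTG. The SP/KLF search was for GGGCGG, that for the TATA box TATAAA, and that for the ETS factors CCGGAAG. The longer NF-kB and NFI motifs were searched as well. No motif contains another. A match is a description of letters and not a bound site. The first is the promoter of Il1f8 (IL-36 beta), chr2:24152922-24153221 on the plus strand, shared but with a much lower rank after the second wound.
Il1f8: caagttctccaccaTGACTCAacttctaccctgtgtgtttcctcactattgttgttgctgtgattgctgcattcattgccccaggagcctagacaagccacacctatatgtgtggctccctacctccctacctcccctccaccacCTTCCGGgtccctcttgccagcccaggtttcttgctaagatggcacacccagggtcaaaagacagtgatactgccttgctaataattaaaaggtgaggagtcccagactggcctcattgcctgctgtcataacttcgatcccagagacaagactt
The promoters of Il1a (IL-1 alpha, chr2:129309923-129310222, minus strand) and Il1f9 (IL-36 gamma, chr2:24186226-24186525, plus strand) were lost.
Il1a: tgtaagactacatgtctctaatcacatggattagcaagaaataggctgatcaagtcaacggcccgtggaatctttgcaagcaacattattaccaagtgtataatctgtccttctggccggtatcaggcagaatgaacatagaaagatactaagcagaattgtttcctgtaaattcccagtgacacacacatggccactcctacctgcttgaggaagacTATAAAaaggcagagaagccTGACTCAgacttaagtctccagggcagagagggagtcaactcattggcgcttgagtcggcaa
Il1f9: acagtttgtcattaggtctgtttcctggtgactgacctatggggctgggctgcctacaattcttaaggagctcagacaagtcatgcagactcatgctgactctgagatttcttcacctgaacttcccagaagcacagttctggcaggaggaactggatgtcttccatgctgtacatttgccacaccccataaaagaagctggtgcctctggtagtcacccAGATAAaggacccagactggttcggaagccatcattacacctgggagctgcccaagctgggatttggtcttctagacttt
The promoter of Il1rn (the secreted antagonist of the IL-1 receptor, chr2:24336610-24336909, plus strand) was shared and had the higher rank after the second wound.
Il1rn: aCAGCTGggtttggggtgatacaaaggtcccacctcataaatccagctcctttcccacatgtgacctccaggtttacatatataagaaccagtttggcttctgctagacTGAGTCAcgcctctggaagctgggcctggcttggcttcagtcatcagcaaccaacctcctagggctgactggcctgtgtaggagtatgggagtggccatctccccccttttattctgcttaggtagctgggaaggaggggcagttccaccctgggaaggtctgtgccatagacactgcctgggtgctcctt
The promoters of Casp1 (the protease that activates IL-1 beta and IL-18, chr9:5298267-5298566, plus strand) and Ripk3 (a kinase of necroptosis, chr14:55788808-55789107, minus strand) were gained.
Casp1: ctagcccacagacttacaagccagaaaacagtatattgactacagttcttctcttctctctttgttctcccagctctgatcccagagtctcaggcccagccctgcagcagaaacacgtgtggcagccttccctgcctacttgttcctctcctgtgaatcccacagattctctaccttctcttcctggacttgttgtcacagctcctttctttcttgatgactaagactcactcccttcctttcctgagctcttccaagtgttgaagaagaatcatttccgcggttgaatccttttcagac
Ripk3: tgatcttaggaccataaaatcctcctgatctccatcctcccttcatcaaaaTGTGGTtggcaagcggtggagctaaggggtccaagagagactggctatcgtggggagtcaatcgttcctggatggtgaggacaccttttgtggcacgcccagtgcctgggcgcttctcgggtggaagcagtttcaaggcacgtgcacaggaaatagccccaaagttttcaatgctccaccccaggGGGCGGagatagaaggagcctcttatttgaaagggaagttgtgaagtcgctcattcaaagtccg
The promoter of Il1f8 has an AP-1 match, TGACTCA, 236 bases before the start and an ETS match on the reverse strand 105 bases before it. That of Il1a has a TATA match 32 bases and an AP-1 match 12 bases before the start, and that of Il1rn an AP-1 match, TGAGTCA, 141 bases before it. The Casp1 window holds no match to the 10 motifs. Over all 21262 promoter windows, 6.99% hold an AP-1 match, 11.6% an ETS match and 12.6% a TATA match.

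The second-wound list held 42200 regions and the first-wound list 49078. Of the second-wound regions as merged over both lists, 4155 of 41632 were gained (9.98%, Wilson 95% interval 9.70 to 10.3%, which covers counting error only). Of the first-wound regions, 11331 of 48808 were lost (23.2%, 22.8 to 23.6%). The lists shared 37477 regions, 70.8% of all merged regions. In such pooled cells, fewer cells with an open region and less opening per cell cannot be told apart. Both counts depend on the lengths of the lists. When the longer list was limited to its strongest 42200 regions, 7585 regions were gained and 7989 were lost, 2 counts that equal lengths bring close together by construction. The read depth is unknown, and its part in the length of the lists was not tested.

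Both gained and lost regions were weak and narrow. The median signal value was 7.17 in gained regions (in the second-wound list) and 6.80 in lost regions (in the first-wound list), against 10.7 in shared regions. The median width was 429 bp for gained, 464 bp for lost and 748 bp for shared regions. When each list was divided by signal value into 10 bins of equal size, 21.9% of the second-wound regions were gained and 51.5% of the first-wound regions were lost in the weakest bin. In the strongest bin 1.14% were gained and 0.570% were lost. The strongest bin was the only bin in which the gained share was above the lost share. Of the 48 gained regions in that bin, 34 were narrower than 300 bp with a signal value of 20 or higher. Of the lost regions 0 were of this kind. The gained share of the strongest bin without these narrow regions was not tested.

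**Figure D1:**
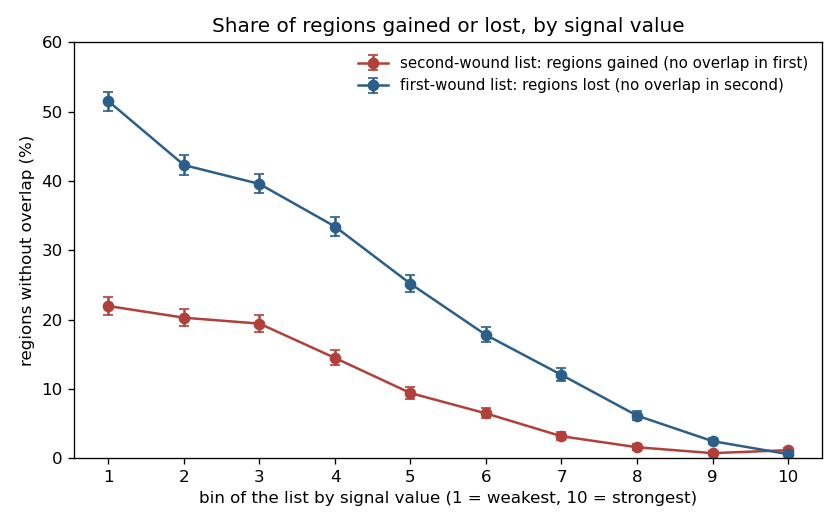
Share of regions gained (of the second-wound list, red) and lost (of the first-wound list, blue) in 10 bins of each list by signal value, in percent, with Wilson 95% intervals. The lost share goes down from 51.5% in the weakest bin to 0.570% in the strongest. The gained share goes from 21.9% to 0.711% in bin 9 and 1.14% in bin 10. Of the 48 gained regions in bin 10, 34 were narrower than 300 bp with a signal value of 20 or higher.

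Few differences lay at promoters. A promoter window was touched by 3.73% of gained, 6.52% of lost and 21.7% of shared regions. By gene, 150 of 8676 genes with an open promoter after the second wound had gained it (1.73%), and 738 of 9264 genes with an open promoter after the first wound had lost it (7.97%). With lists of equal length these counts were 454 gained and 543 lost promoters. That comparison cuts the first-wound list only, so all 150 gained promoters keep their class in it by construction. Of the 738 lost promoters, 543 kept theirs.

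The promoters that differed were poorer in GC and CpG than those that did not. The median GC content was 58% in gained, 61.7% in lost and 62.3% in shared windows. The median number of CpG in the 300-base window was 12 in gained, 19 in lost and 23 in shared promoters, against 4 in promoters open in neither list. An SP/KLF match was present in 51.0% of gained (44.2 to 57.8%), 60.6% of lost (57.4 to 63.6%) and 70.7% of shared promoter windows (69.8 to 71.6%). An ETS match was present in 5.39% of gained, 9.91% of lost and 20.7% of shared windows. AP-1 matches were near the share of shared windows in both classes, with 3.92% of gained, 5.65% of lost and 4.85% of shared windows. Windows open in neither list held AP-1 in 9.24% and the TATA box in 19.7%.

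The homeostasis list and the list made 8 weeks after the first wound lacked most of the regions that differed between the wounds. Of gained regions, 17.9% were present in the homeostasis list, against 27.6% of lost and 78.8% of shared regions. At 8 weeks after the first wound, 18.6% of gained, 24.5% of lost and 79.0% of shared regions were present. Neither of these lists held 70.5% of gained regions (2930), 59.9% of lost regions (6786) and 12.2% of shared regions (4573). Most of the differing regions were nevertheless found elsewhere in the series: the vehicle list, also labelled as week 0 but longer (70008 regions, against 35195 in homeostasis), held 76.9% of gained, 84.9% of lost and 98.1% of shared regions. The UVB list held 77.9% of gained and 86.8% of lost regions. In none of the other 8 lists were 258 gained regions (6.21%) and 276 lost regions (2.44%). Both wound lists held regions at the Y-linked genes Ddx3y, Uty and Eif2s3y, and the homeostasis, 8 weeks, vehicle and UVB lists held none. The part of the sex of the mice in these shares was not tested.

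**Figure D2:**
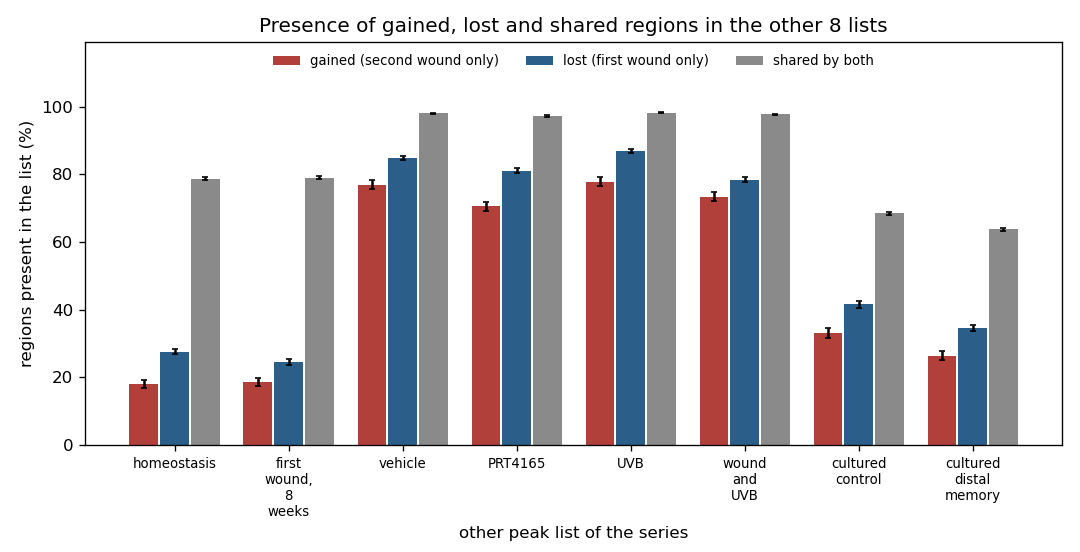
Share of gained (red), lost (blue) and shared (grey) regions, in percent with Wilson 95% intervals, that each of the other 8 peak lists of the series holds. Homeostasis and 8 weeks hold 17.9 to 27.6% of the gained and lost regions, and the vehicle and UVB lists 76.9 to 86.8%.

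The order of the shared regions by signal value was similar after both wounds. The Spearman correlation over the 37477 shared regions was 0.88, given as a description, since regions of the same libraries are not independent. The difference in percentile, second wound minus first wound, had a standard deviation of 13.9 points over regions. It was 25 points or more in favour of the second wound in 1372 regions (3.66%) and in favour of the first wound in 1673 regions (4.46%). Promoters kept their order better (correlation 0.91 over 8133 regions) than other regions (0.87 over 29344). The 4573 shared regions found neither in homeostasis nor at 8 weeks had a correlation of 0.73.

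Among shared regions with a mean percentile of 50 or more, the region at the Il1f8 promoter (chr2:24152751-24153244) had the lowest rank after the second wound relative to the first. Its signal value was 6.39 after the second wound and 17.3 after the first, percentile 12.9 against 93.4, a difference of -80.5 points. By −log10 p the difference was -62.8 points. The region was absent in homeostasis and had a signal value of 14.4 at 8 weeks after the first wound. The other 7 regions that ranked much lower after the second wound differed by -60.9 to -63.4 points. They lay inside Nav1 and Fbrsl1, at the end of Tbc1d19, near Fem1a and Slc1a4, at the promoter of Krtap2-4, which encodes a keratin-associated protein of the hair shaft, and on chromosome 12 with no gene within 100 kb. The Krtap2-4 region had a signal value of 7.63 after the second wound and 15.5 after the first.

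In the other direction, with the same limit on the mean percentile, the region with the highest relative rank after the second wound lay inside Trim69, a ubiquitin ligase gene. Its signal value was 16.4 after the second wound and 7.74 after the first, percentile 90.5 against 26.5. A region inside Sh3gl2, which encodes an endophilin of membrane traffic, had 16.1 after the second wound and 7.88 after the first. The other 6 were near Acad9, Parm1 and Ptma, inside Mfsd14b and Pfkfb2 and, with no gene within 100 kb, on chromosome 13. They differed by 56.7 to 61.0 points. None of these 8 regions was at a promoter window. Since all 16 regions were chosen for their size, their direction is no sign of stability, and the sizes depended on the measure. By the mean over the peaks of a region, the difference was 27.1 points for Trim69 in place of 63.9, -19.5 for Fem1a in place of -62.8 and -17.1 for Fbrsl1 in place of -60.9. For Il1f8 it was -70.2. Over all shared regions, whatever their percentile, the differences ran from -80.5 to 72.8 points.

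**Figure D3:**
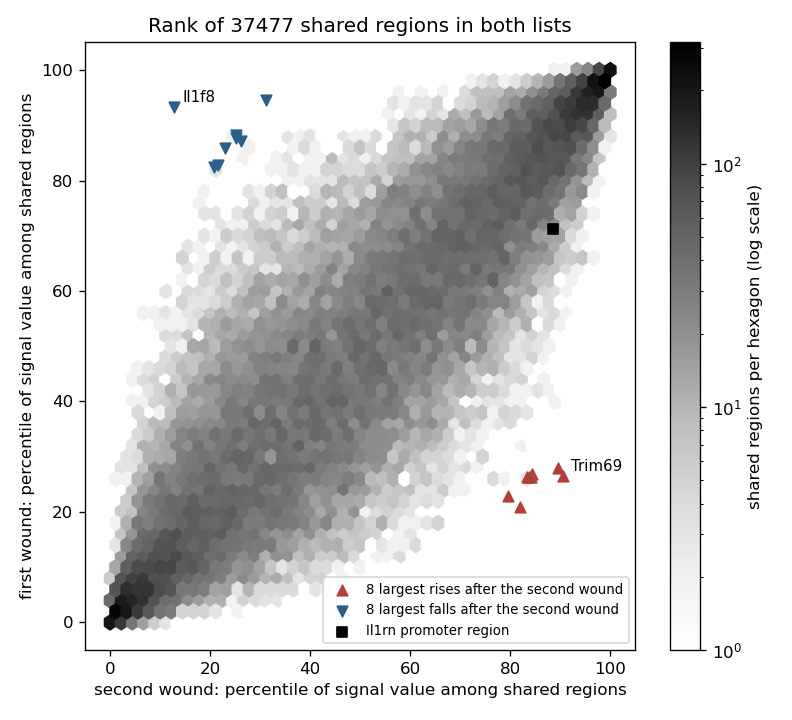
Percentile of the signal value of each of the 37477 shared regions after the second wound (horizontal) and after the first wound (vertical). Grey shows the number of regions per hexagon on a log scale. Triangles are the named regions with the largest differences in rank among those with a mean percentile of 50 or more, with Il1f8 at 12.9 after the second wound and 93.4 after the first, and the square is the Il1rn promoter at 88.5 after the second and 71.1 after the first.

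The IL-1 family was examined member by member. The list of 18 ligands, antagonists and receptors was drawn up after these results had been seen, so its counts are a description. Its genes had 7 gained, 20 lost and 40 shared regions: 14.9% of their second-wound regions were gained, against 9.98% of all regions, and 33.3% of their first-wound regions were lost, against 23.2%. Of 12 members with an open promoter after the first wound, 5 had lost it (Il1a, Il18, Il1f9, Il1f10 and Il1r2), and no promoter was gained. Over all genes with an open promoter after the first wound, 7.97% had lost it. With lists of equal length 4 of the 5 were still lost and that of Il1f9 was in neither list, and with peaks of a score of at least 830 only those of Il1a and Il1r2 were, while those of Il18, Il1f9 and Il1f10 were in neither list. A further list of 25 inflammatory signalling genes, with Il1a, Il1b, Il18, Il33 and Il1r1 among them, had 13 gained, 28 lost and 92 shared regions. Its shares were 12.4% gained, against 9.98% of all regions, and 23.3% lost, against 23.2%. Promoters were lost at 2 of its 13 members with an open one after the first wound (Il1a and Il18), against 7.97% of all.

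Among the ligands, Il1a had 4 regions after the first wound, and the second-wound list held none of them. Their signal values after the first wound were 10.2 at the promoter and 11.5, 7.73 and 6.48 upstream, the last 20647 bp from the gene. In this list 10.2 is above the median of 8.96. The Il1a promoter was also lost with lists of equal length, with regions of at least 300 bp and with peaks of a score of at least 830. Il1b, the ligand released after cleavage by caspase-1, had 0 gained, 1 lost and 3 shared regions, none at its promoter. In the IL-36 cluster on chromosome 2, the promoter regions of Il1f9 (5.75 after the first wound) and Il1f10 (6.83 after the first wound) were lost. Those regions were weak, and the Il1f9 promoter was in neither list when the lists had equal length. A shared region 3508 bp from Il1f9 had percentile 13.2 after the second wound and 32.5 after the first.

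Il18 lost its promoter region, with 8.19 after the first wound. It gained a region 9070 bp from a gene end, with 7.22 after the second wound. Il33, an alarmin stored in the nucleus of keratinocytes, had 1 gained, 5 lost and 8 shared regions. Its strongest shared region, by the mean percentile of both lists, had 15.2 in each list.

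Among the inhibitors, the Il1rn promoter had a signal value of 15.8 after the second wound and 12.4 after the first, percentile 88.5 against 71.1. It had the largest difference in favour of the second wound among the strongest shared regions of the 18 genes. The nearest region to Il1f5, the IL-36 receptor antagonist, had percentile 62.0 after the second wound and 82.9 after the first. Il1r2, a decoy receptor that binds IL-1 without a signal, had 0 gained, 4 lost and 5 shared regions, and its promoter was lost (6.53 after the first wound). Sigirr, an inhibitory receptor, had 2 shared regions and no other.

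Among the signalling receptors, the promoters of Il1r1 and Il1rap, whose products form the IL-1 receptor, stayed open. The Il1r1 promoter region farthest upstream had 7.66 after the second wound and 12.9 after the first, percentile 25.7 against 74.3. The second Il1r1 promoter region was weak in both lists, with 5.40 after the second wound and 4.15 after the first. A region 9634 bp from Il1rap had 7.84 after the second wound and 14.5 after the first, percentile 27.5 against 83.7, while the Il1rap promoter had 16.0 after the second wound and 17.9 after the first. Il1rl2, the IL-36 receptor, kept its promoter with 5.12 after the second wound and 6.65 after the first. Il1rl1, the receptor of IL-33, had 1 gained, 0 lost and 1 shared region.

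**Figure D4:**
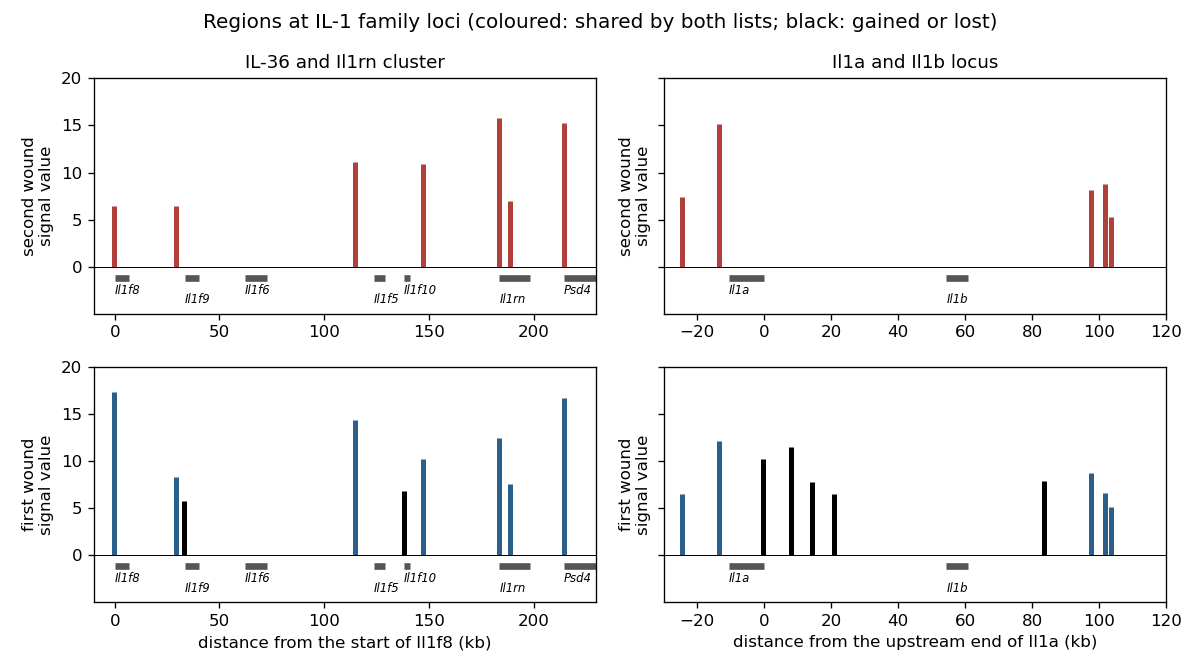
Signal values of regions at the IL-36 and Il1rn cluster (left) and at Il1a and Il1b (right), after the second wound (upper, red) and the first wound (lower, blue), by distance in kb; shared regions are coloured, lost regions black. Il1f8 has 6.39 after the second wound and 17.3 after the first, and the 4 regions of Il1a stand in the first-wound list alone.

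Genes of the inflammasome and of necroptosis differed in both directions. This list of 17 genes was also drawn up after the data had been seen. It had 6 gained, 8 lost and 12 shared regions, so that 33.3% of second-wound regions were gained, against 9.98% of all, and 40% of first-wound regions were lost, against 23.2%. Of 6 promoters open after the second wound 3 were gained, and of 6 open after the first wound 3 were lost. Over all genes with an open promoter these shares were 1.73 and 7.97%. Promoters were gained at Casp1 (signal value 7.84 after the second wound), Casp4 (7.07), which encodes the receptor of intracellular lipopolysaccharide, and Ripk3 (7.91). Promoters were lost at Mlkl, which encodes the pore-forming protein that acts after Ripk3, at Gsdme (8.96 after the first wound), a gasdermin, and at Cflar (4.64), an inhibitor of caspase-8. That of Cflar was in neither list when the lists had equal length, and with peaks of a score of at least 830 only that of Gsdme was still lost. The gained promoters of Casp1, Casp4 and Ripk3 kept their class with lists of equal length, as any gained promoter does there by construction. With peaks of a score of at least 830 they were in neither list. Another region of Ripk3 was among the strongest in both lists, at percentile 99.4 after the second wound and 99.8 after the first. Nlrp3 had no region in either list.

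Counts were made for 25 further gene lists and for genes of the basement membrane, by giving each region to the gene that contains its summit or, failing that, to the nearest gene within 100 kb. Over all 14572 genes with a region, 1434 had more regions gained than lost (9.84%) and 5325 had more lost than gained (36.5%). Wide genes with many weak regions have more chances to be in either count.

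The genes of the AP-1 transcription factors and other immediate early genes had the lowest lost share of all 28 lists. They had 5 gained, 16 lost and 123 shared regions, so that 3.91% of second-wound regions were gained, against 9.98% of all, and 11.5% of first-wound regions were lost, against 23.2%. Fos, which encodes an AP-1 subunit, had 1 gained, 0 lost and 9 shared regions, Junb had 3 shared regions only, and Fosl2 0 gained, 1 lost and 7 shared. Myc, a growth regulator, had 0 gained, 3 lost and 15 shared regions. All 14 promoters of the list that were open after the first wound were open after the second. Over all genes with an open promoter 7.97% were lost, so few losses are looked for in a list of this size. The gained share depended on list length: with lists of equal length it was 35.2%, against 18.2% of all regions, while the lost share was 6.74%, against 19.0%. The median signal value of the list's first-wound regions, 7.04, was below the 8.98 of all regions. The strongest shared region of Fos had percentile 49.6 after the second wound and 66.2 after the first, and that of Nr4a1, a nuclear receptor gene, had 88.8 after the second and 71.5 after the first.

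The p53 pathway and DNA damage list kept all of its 19 promoters open after the first wound. Against the 7.97% lost over all genes with an open promoter, few losses are looked for among 19. The list had 6 gained, 12 lost and 84 shared regions, with 6.67% gained and 12.5% lost, against 9.98 and 23.2% of all. With lists of equal length 27.8% were gained, against 18.2% of all, and 8.45% lost, against 19.0%. Sfn, a p53 target that marks differentiating keratinocytes, had 0 gained, 2 lost and 2 shared regions. Genes of glycolysis and hypoxia had 7 gained, 22 lost and 97 shared regions (6.73% gained, 18.5% lost). They kept all 22 promoters open after the first wound, again beside 7.97% lost over all genes with an open promoter. Interferon sensing and response genes had 0 gained, 7 lost and 30 shared regions, with 18.9% lost, against 23.2% of all. Their only promoter that differed was that of Tlr3, a receptor of double-stranded RNA, which was lost (12.4 after the first wound). It was 1 of 13 open after the first wound.

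Developmental regulators, transcription factors that Polycomb complexes keep silent in most adult tissues, had a high lost share. They had 7 gained, 28 lost and 47 shared regions, so that 13.0% were gained, against 9.98% of all, and 37.3% lost, against 23.2%. Only 35 of the 54 genes had a region. Neurod1, a neural factor, had 0 gained, 5 lost and 2 shared regions. The promoters of Sox2, Isl1 and Six2 were lost (7.55, 9.51 and 5.03 after the first wound), and no promoter was gained. These were 3 of 5 open after the first wound, against 7.97% of all genes with an open promoter. That of Six2 was in neither list when the lists had equal length. The median difference in percentile of the shared regions was -3.14 points, against 0.23 over all. With lists of equal length 20.4% were gained, against 18.2% of all, and 35.8% lost, against 19.0%.

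Genes of the Wnt pathway had 16 gained, 73 lost and 207 shared regions. Of their regions 7.17% were gained, against 9.98% of all. Their lost share of 26.1% was near the 23.2% of all regions, and with lists of equal length it was 19.8%, against 19.0%. Of 46 members with a region, 2 had more regions gained and 26 more lost, against 9.84 and 36.5% of all genes with a region. Ror2, a receptor of Wnt5a, had 1 gained, 11 lost and 11 shared regions, Sfrp1, a secreted inhibitor, 1 gained, 6 lost and 8 shared, and Wnt7b, a ligand, 0 gained, 5 lost and 14 shared. Ror2 was among the 8 genes with the lowest balance of gained minus lost regions in the whole comparison. Promoters of the ligands Wnt3, Wnt3a, Wnt6 and Wnt16 and a promoter of Lef1, a transcription factor of the pathway, were lost, 5 of 24 open after the first wound, against 7.97% of all genes with an open promoter, and none was gained. Those of Wnt6 and Lef1 were in neither list when the lists had equal length. Those of Wnt3 (8.65 after the first wound), Wnt3a (6.36) and Wnt16 (7.50) were also lost with lists of equal length, while those of Wnt6 and Lef1 were then in neither list. TGF-beta and BMP genes had 20 gained, 61 lost and 176 shared regions, and their shares of 10.2% gained and 25.7% lost were near those of all regions. The inhibitor Smad7 had 0 gained, 6 lost and 8 shared, and the promoter of the ligand Bmp4 was lost at a weak 4.87 after the first wound. Notch pathway genes had 14 gained, 28 lost and 92 shared regions (13.2% gained, against 9.98% of all, and 23.3% lost, against 23.2%). Of their ligands, Dll1 had 0 gained, 4 lost and 4 shared regions, and Jag1 2 gained, 0 lost and 5 shared.

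**Figure D5:**
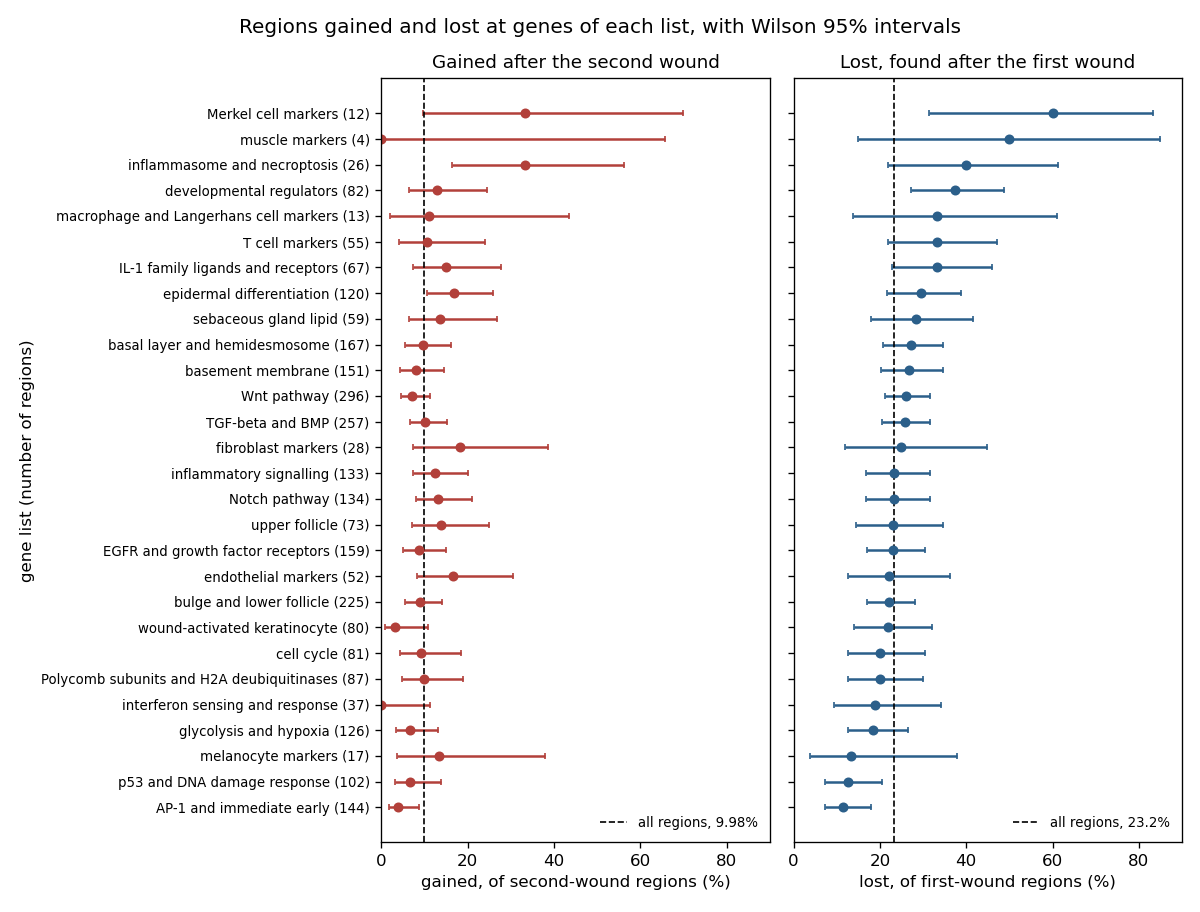
Share of regions gained (left, of second-wound regions) and lost (right, of first-wound regions) at the genes of 28 lists, in percent with Wilson 95% intervals, with the share over all regions dashed (9.98% gained, 23.2% lost). The AP-1 list with the other immediate early genes stands at 3.91% gained and 11.5% lost, and developmental regulators at 13.0% gained and 37.3% lost.

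Genes of the basal layer and its anchorage had 12 gained, 42 lost and 113 shared regions (9.60% gained, 27.1% lost, against 9.98 and 23.2% of all). Dst, which encodes a hemidesmosome plakin, had 1 gained, 7 lost and 13 shared regions, Trp63, the master regulator of stratified epithelia, 1 gained, 5 lost and 13 shared, and Itga6, an integrin chain of hemidesmosomes, 0 gained, 4 lost and 8 shared. The strongest Trp63 region was at percentile 97.5 after the second wound and 97.8 after the first. A promoter inside Tfap2a, an epidermal transcription factor gene, was gained (5.95 after the second wound). The 28 basement membrane genes, a list drawn up after the data had been seen, had 9 gained, 38 lost and 104 shared regions. Their shares of 7.96% gained and 26.8% lost were near those of all regions, and with lists of equal length 19.1% were lost, against 19.0%. Of their 11 promoters open after the first wound, 7 were lost, against 7.97% of all open promoters: Col4a1 and Col4a2, which share 1 region between them (5.66), Col4a5 (11.5), Col4a6 (6.20), Col7a1 (4.14), Hspg2 (3.77) and Agrn (3.97). The promoter of Lamb2, a laminin chain, was gained (7.81 after the second wound). With lists of equal length Col4a5 and Col4a6 were the only lost promoters of these 7, and the other 5 were open in neither list.

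Genes that wounded keratinocytes turn on had 2 gained, 17 lost and 61 shared regions, so that 3.17% of second-wound regions were gained, against 9.98% of all, and 21.8% of first-wound regions were lost, against 23.2%. With lists of equal length 15.9% were gained, against 18.2% of all. Ptgs2, which encodes the inducible enzyme of prostaglandin synthesis, had 0 gained, 3 lost and 9 shared regions. The promoter of Plaur, the urokinase receptor gene, was lost (8.11 after the first wound). The only region of Krt16, a keratin of wounded epidermis, had percentile 9.48 after the second wound and 41.4 after the first. The strongest shared regions of the neighbours S100a8 and S100a9, which encode the subunits of calprotectin, differed in opposite directions. That of S100a8 had percentile 80.0 after the second wound and 60.9 after the first, and that of S100a9 66.8 after the second and 92.6 after the first. EGFR and growth factor receptor genes had 11 gained, 34 lost and 114 shared regions, and their shares of 8.80% gained and 23.0% lost were near those of all regions. The promoters of the EGFR ligands Tgfa (6.63 after the first wound) and Epgn (8.84) were lost. These were 2 of 16 open after the first wound, against 7.97% of all genes with an open promoter. Fgfr2, a receptor gene, had 2 gained, 9 lost and 7 shared regions. Its promoter was gained, also with peaks of a score of at least 830. Epidermal differentiation genes had 15 gained, 31 lost and 74 shared regions (16.9% gained and 29.5% lost, against 9.98 and 23.2% of all). With lists of equal length 29.2% were gained, against 18.2% of all, and 19.2% lost, against 19.0%. Tgm3, a transglutaminase gene, had 2 gained, 10 lost and 7 shared regions and a lost promoter (8.18 after the first wound). The promoter of Grhl3 was gained, and was in neither list with peaks of a score of at least 830.

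The lost shares of follicle genes were near that of all regions. Upper follicle genes had 8 gained, 15 lost and 50 shared regions (13.8% gained and 23.1% lost, against 9.98 and 23.2% of all). With lists of equal length 29.3% were gained, against 18.2% of all, and 14.6% lost, against 19.0%. At Lrig1 there were 1 gained, 4 lost and 11 shared regions, with its strongest shared region at 15.9 after the second wound and 17.2 after the first, and Ly6a, which encodes Sca1, 0 gained, 1 lost and 1 shared region. The promoter region of Krt79, a keratin of the upper follicle, was lost at a signal value of 3.44, among the weakest of the first-wound list. Bulge and lower follicle genes had 16 gained, 46 lost and 163 shared regions (8.94% gained, 22.0% lost). Nfib, a transcription factor of follicle stem cells, had 0 gained, 8 lost and 12 shared, and Lhx2 had its strongest region at percentile 32.8 after the second wound and 67.6 after the first.

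Across all genes, the highest balance was that of Ppp2r2c, a regulatory subunit of the phosphatase PP2A, with 7 gained, 0 lost and 3 shared regions. Its gained regions had signal values of 5.70 to 7.05 after the second wound, and the one at the promoter had 5.93. Each of these 7 regions was found in 1 to 5 of the other 8 lists and in neither homeostasis nor at 8 weeks. Next came Sema5a, an axon guidance gene, with 6 gained, 2 lost and 14 shared, then Psd3, Mthfd1l, Sae1, Creb3l1, Foxi1 and Glis1, with 3 more gained than lost each. At the other end, Macrod2 had 4 gained, 15 lost and 31 shared regions and Rad51b, a DNA repair gene, 5, 16 and 35. Zbtb7c, Ror2, Tbc1d1, Prkce, Mbnl1 and Aopep had 9 or 10 more lost than gained.

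The 5 strongest gained regions had signal values of 41.6 to 51.7 after the second wound, and all were 208 to 234 bp wide. They lay inside Plxdc2 (51.7), Zfp949 (46.0) and Npffr2 (43.7), near Sulf1 (45.9) and on chromosome 6 with no gene within 100 kb (41.6), and 4 of the 5 were in the homeostasis list. Of gained regions at least 300 bp wide, the strongest were on chromosome 17 with no gene within 100 kb (27.7), inside Ncoa1 (25.6) and near Alox5ap (19.2), whose product serves leukotriene synthesis. These were chosen after the values were seen. The strongest lost regions had 18.1 to 20.1 after the first wound and lay near Lce3e, a gene of the cornified envelope (20.1), on chromosome 1 with no gene within 100 kb (19.2), inside Pibf1 (18.4), at the promoter of Gm5141 (18.2) and near Cpne8 (18.1).

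The labelled cell type and the make-up of the lists were checked at marker genes. Both lists held regions in or within 1 kb of Lrig1 (7 after the second wound, 9 after the first), Ly6a (1 in each), and the basal keratins Krt5 and Krt14 (2 each after the second wound, 1 each after the first). Markers of other cell types also had regions. T cell markers had 4 gained, 17 lost and 34 shared regions (10.5% gained and 33.3% lost, against 9.98 and 23.2% of all regions). Of these, Bcl11b, also a keratinocyte factor, had 0, 6 and 13. Cd2 had 0, 4 and 6, Cd28 1, 1 and 5, and Cd5 1, 0 and 4, while Cd3d, Cd3e and Cd3g had none in either list. Macrophage and Langerhans cell markers had 1 gained, 4 lost and 8 shared regions (11.1% gained and 33.3% lost). Spi1 had 0, 2 and 1, and Ptprc, Itgam, Adgre1 and Cx3cr1 had 1 shared region each, with none at Cd207, Csf1r or Lyz2. Fibroblast markers had 4 gained, 6 lost and 18 shared regions (18.2% gained and 25% lost). Col1a1 had 0, 0 and 3, Fbn1 0, 1 and 4, and Postn 2, 1 and 3, with none at Col1a2, Col3a1, Lum, Pdgfrb or Twist2. Melanocyte markers had 2, 2 and 13 (13.3% gained and 13.3% lost) and endothelial markers 7, 10 and 35 (16.7 and 22.2%). Merkel cell markers had 2, 6 and 4 (33.3 and 60%) and muscle markers 0, 2 and 2 (0 and 50%), shares that rest on few regions. Sox2 and Isl1 stand in both the Merkel cell and the developmental list, and their lost promoters count in each. The part of other cells in the gained and lost regions was not tested. Both wound lists held regions at the Y-linked genes Ddx3y, Uty and Eif2s3y, while the homeostasis, 8 weeks, vehicle and UVB lists held 0. In or within 1 kb of Xist, the second-wound list held 0 regions and the first-wound list 1. The homeostasis list held 2 there, that of 8 weeks 1, the vehicle list 2 and the UVB list 4. Of first-wound regions, 28.5% were lost on the X chromosome and 23.1% on the autosomes, which ranged from 20.1% (chromosome 19) to 25.5% (chromosome 14). The sex of the mice is not given in the labels used here, and its part in these values was not tested.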

How the data were processed

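ATAC-seq libraries of the second-wound and first-wound groups (2 each) were compared through 1 deposited peak list per group. Per the submitters' processing notes the build was mm10. No aligner, peak caller, filter or Tn5 shift is given in the sources used here. Per the names of the lists, they are conservative lists of peaks reproducible between the 2 libraries. The lists hold, per peak, the authors' score (540 or higher), the authors' signal value and the deposited −log10 p (2.00 or higher), and the deposited summit offset. Depth is unknown. Here, overlapping peaks were merged on chromosomes 1 to 19, X and Y, with the strongest peak giving signal value and summit, and overlap meant at least 1 bp. Overlap counts equalled those of bedtools 2.31.1 in 4 of 4 checks, and the code was tested on simulated data. Python 3.11.15, numpy 2.4.6, pandas 2.3.3, scipy 1.17.1 and matplotlib 3.10.9 were used.

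Genes were the 21883 protein-coding genes of RefSeq GRCm38.p6, of which 17491 had a promoter window, and all but 3 of 589 list entries were found (Mx1, Trac and Trdc were not). A gene with several windows counts as open if any is touched. The planned motif search at summits was replaced by promoters, as no genome sequence was used. The members and lists were chosen with earlier results of these data known. Named are the 8 genes with the highest and lowest gained minus lost (predicted genes left out), the 5 strongest gained and lost regions, the 8 largest differences in rank in each direction among shared regions with a mean percentile of 50 or more, the leading members of each list, Lrig1 and Ly6a. For lists near the background not all of these are given, and further named members and promoters were chosen after their values were seen. Intervals are Wilson 95% intervals. Alternatives were lists of equal length, 50% overlap of both regions, a score of at least 830, the strongest 50%, regions of at least 300 bp, a gap of 500 bp, other rank values, genes within 20 kb and a 500 bp window. Alternatives for promoters and the X chromosome were chosen after seeing the data.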

Additional observations from a re-analysis of the deposited data

How the results depend on the processing

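No paired analysis was possible because each group has 1 list made from both of its libraries and no value per replicate, and for the same reason no replicate could be left out. The first-wound list stayed the longer under each alternative except equal length, which brings the counts together by construction, so the direction of lost against gained gives no support here. Gained regions numbered 4155 as reported and 7585 with lists of equal length, 2185 with a score of at least 830 and 2427 in the strongest 50% of each list; lost regions numbered 11331 as reported and 5884 in the strongest 50%. The lists of equal length leave out the weakest first-wound regions, so regions present there count as gained. Gained promoters numbered 150 as reported and 454 with lists of equal length. With a window of 500 bp in place of 1 kb, 5.70% of gained, 8.07% of lost and 22.6% of shared regions lay near a gene end, against 8.50, 12.6 and 26.2%. With an overlap of at least 50%, homeostasis held 16.5% of gained and 25.4% of lost regions, 8 weeks 17.2% and 22.3%, and vehicle 71.8% and 80.2%. The Spearman correlation of the ranks was 0.88 as reported, 0.89 by −log10 p and 0.75 by the mean over the peaks of a region; the cause was not tested. Of the lost shares of 28 gene lists under 3 alternatives, 11 of 84 moved out of their intervals, and 21 lists stayed on their side of the share over all regions in each alternative. Without values per library, no difference can be set against replicate error.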

Other observations

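Gained and lost regions were counted in windows of 500 kb. Of 3923 windows with a region, 453 had more gained (11.5%) and 2603 more lost (66.4%). The 2 windows with the lowest balance each had 2 gained and 17 lost regions: chr11:98500001-99000000, with 29 shared regions around the gasdermin genes Gsdma, Gsdma2 and Gsdma3, which act in the epidermis and its follicles, and chr13:53000001-53500000, with 21 shared regions around Ror2 and Msx2, a homeobox gene of the hair follicle. Neighbouring windows on chromosome 11 around Abr had 1 gained, 14 lost and 30 shared, and 0 gained, 13 lost and 10 shared regions. The highest balance was at chr5:36500001-37000000 around Ppp2r2c, with 9 gained, 3 lost and 16 shared regions.

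The strongest gained promoters were those of Tmem198b (15.4 after the second wound), Trim56 (12.8), a ubiquitin ligase gene of innate immunity, and Dmap1 (12.8). The strongest lost promoters were those of Chrnb1 (17.6 after the first wound), Mtif2 (17.0) and Pnpla7 (16.6). These were chosen after their values were seen.

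Regions narrower than 300 bp with a signal value of 20 or higher numbered 52 in the second-wound list and 17 in the first-wound list, and 18 to 47 in the other 8 lists. Of the gained regions 34 were of this kind, and of the lost regions 0. None of the 34 was at a promoter window, and 13 were in the homeostasis list.

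On the X chromosome 28.5% of first-wound regions were lost, against 23.1% on the autosomes, and 25.6 against 18.9% with lists of equal length.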
